A study of Macaca mulatta with 33 samples.

Results

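Luteal tissue of rhesus macaques that had received human chorionic gonadotropin (hCG) for 6 days was compared with luteal tissue after 1 day of hCG. The comparison takes 8 of the 33 arrays of the series, 4 for each group, chosen by the labels of treatment, luteal day and array set, which leaves out 1 further array of 6 days of hCG. Counts over all probe sets include those with several gene symbols or none, and the genes described each have a probe set with 1 symbol. Both groups came from adult cycling females in which injections of rising hCG doses, called simulated early pregnancy, began on day 9 of the luteal phase. Corpora lutea were removed on luteal day 10 (1 day of hCG, replicates 1 to 4) or on luteal day 15 (6 days of hCG, replicates 1, 2, 4 and 5). Untreated corpora lutea of day 10 (4 arrays of the same array set) are given beside them as a baseline. A separate pair of groups received hCG together with trilostane, an inhibitor of the enzyme 3beta-hydroxysteroid dehydrogenase, and R5020, a synthetic progestin, with 4 arrays at day 10 and 3 at day 15 in another array set. Untreated tissue of day 15 was not analysed here, so the length of hCG exposure, its rising dose and the later luteal age cannot be told apart. Each array held RNA of dissected luteal tissue, a mixture of luteal, vascular, stromal and immune cells, so that fewer cells of a type and less RNA per cell cannot be told apart. The labels do not say whether each array came from a separate animal, so the p-values cover the variation among these arrays, which may be technical in part.

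The corpus luteum forms from the ovulated follicle and secretes progesterone, which keeps the uterus receptive. Its cells carry the receptor for luteinizing hormone, which raises cyclic AMP and with it the uptake of cholesterol and its conversion to steroids. Without conception the gland regresses. The embryo's chorionic gonadotropin acts on the same receptor and prolongs the life of the gland into early pregnancy, during which macaque luteal tissue also makes estradiol, inhibin and relaxin.

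Levels are log2 intensities per probe set after each array had been centred on its median, and 1 unit is a 2-fold difference. The median of all values was 6.19, and a lower level is given here as weak signal. The 8 arrays carried the RNA of steroid-producing luteal tissue: STAR, which carries cholesterol into mitochondria, lay between 14.56 and 14.81 and FDX1, which feeds electrons to the side-chain cleavage enzyme, between 13.67 and 13.81. The receptor gene LHCGR had no probe set with 1 symbol that passed the filter on low values. The SD of the differences between 2 arrays over all kept probe sets was 0.379 to 0.505 within the day 10 group, 0.419 to 0.487 within the day 15 group and 0.396 to 0.652 between the groups. Day 15 replicate 4 lay as near to day 10 replicate 2 (0.396) as arrays of a group lie to each other. The 3' minus 5' difference of the actin control, a sign of RNA integrity, was 0.944 at day 10 and 1.04 at day 15 (exact permutation test, two-sided, p = 0.571). The GAPDH control gave 0.945 and 1.01 (exact permutation test, two-sided, p = 0.686; the smallest p that 70 regroupings allow is 0.0286). Day 15 hCG replicate 3, run in array set 3, was left out. It nearly repeats replicate 5 (correlation 0.993 over the kept probe sets, SD of the differences 0.201). Whether the name of 1 of these arrays was crossed cannot be told, so the identity of replicate 5 is uncertain. Of the 8 arrays compared, replicate 5 of day 15 alone has a title without the word reanalysis, which the labels do not explain. Without replicate 5, 1802 probe sets were called.

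Between 1 and 6 days of hCG, more probe sets were called lower than higher. As each array was centred on its median, levels are relative and the total amount of RNA was not measured. Of 28722 probe sets tested with limma, 1698 were called at a Benjamini-Hochberg adjusted p under 0.05, which is 5.91%. At day 15, 666 (2.32%) of the probe sets were higher and 1032 (3.59%) were lower. With 1 probe set for each of 10470 genes, 715 genes (6.83%) were called, 268 (2.56%) higher and 447 (4.27%) lower. Among them, 60 genes rose and 126 fell by 2-fold or more. The median change over all genes was -0.02, and the 4 arrays of a group did not overlap with those of the other for 1164 genes (11.1%), of which 596 were called. The count rests in part on single arrays: it was 877 without day 15 replicate 2 and 1078 without day 10 replicate 3. A number in braces in the array names, whose meaning the labels do not give, marks 2 arrays in each group; 392 probe sets were called within the marked arrays and 181 within the unmarked.

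Of the genes described below, 70 were called by the rule for naming, and a call that ended when 1 array was left out is given beside the gene. Other fits ended further calls among these 70. With only the 8 arrays the calls of B3GNT5, CDC25B, CFLAR, DSP, EVI2A, HSD17B7, IGF2, IGFBP2, KRT8, MYBL2, NR5A2, PDGFB, PFKP, RGS2, RXRA, TRABD2A and VCAN ended. With the mark in braces as a block those of B3GNT5, CDC25B, DSP, HSD17B7, IGF2, IGFBP2, KRT8, MYBL2, NR5A2, PDGFB, PFKP, RGS2, RXRA, TRABD2A and VCAN ended. The letter of the array name as a block ended those of B3GNT5, CCNB1, CDC25B, DSP, EVI2A, FTL, HSD17B7, IGF2, IGFBP2, LTBP1, MGARP, MYBL2, NR5A2, PDGFB, PFKP, RGS2, RXRA, SMAD3, TRABD2A and VCAN. With array set 1 alone those of CDC25B, FST, HSD17B7, IGFBP2, INHBA, NR5A2, PDGFB, PFKP, TRABD2A and VCAN ended, and with no filter on low values those of DSP, IGF2, IGFBP2, MGST1, PDGFB, PFKP, RXRA, TRABD2A and VCAN. Within the arrays with braces 25 of the 70 calls were kept and within those without braces 16. Outside the 70, the calls of CCL3, MKI67, PGRMC2, RLN2, SDC1 and TGFBR1 ended with only the 8 arrays. The mark in braces as a block ended those of CCL3, FOXM1, PGRMC2 and RLN2. The letter of the array name as a block ended those of BAMBI, CCL3, FOXM1, MKI67, PGRMC2, RLN2, SDC1 and TGFBR1. With array set 1 alone those of CCL3, PGRMC2, RLN2 and TGFBR1 ended, and with no filter on low values those of CCL3 and PGRMC2.

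**Figure D1:**
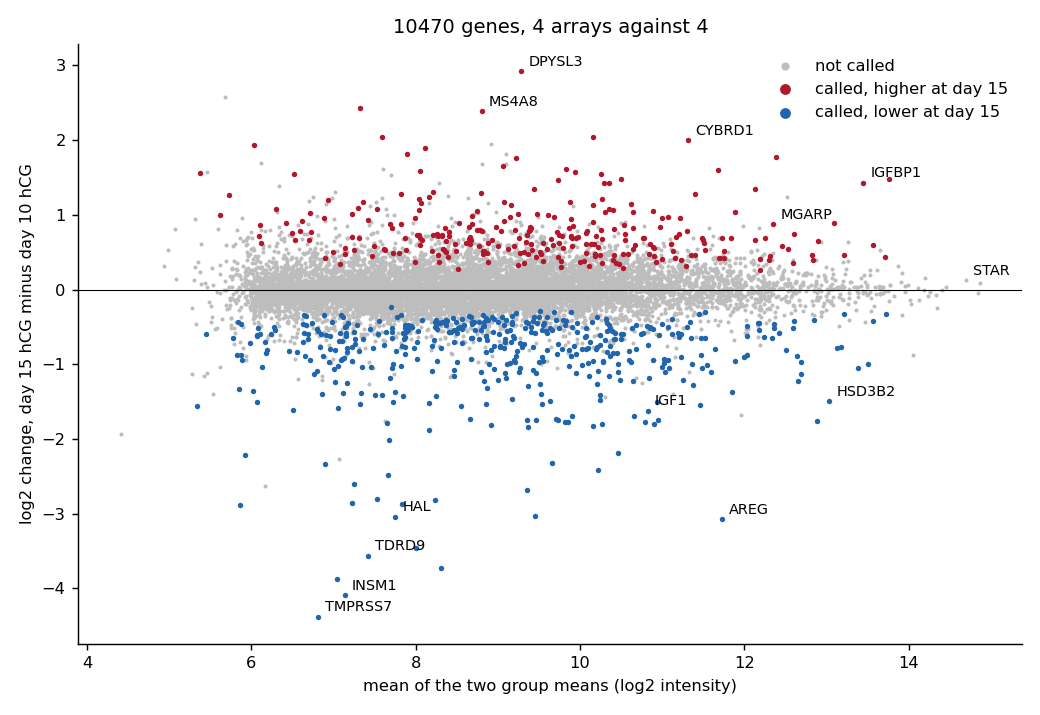
Each point is 1 of 10470 genes, placed by its mean level in both groups (log2 intensity, horizontal) and its log2 change from 1 to 6 days of hCG (vertical), 4 arrays a group. The 268 called rises are red and the 447 called falls blue; the falls reach -4.38 (TMPRSS7), the rises 2.92 (DPYSL3), and STAR lies near 0.

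The 15 largest losses and the 15 largest gains were taken among called genes whose hCG groups did not overlap. In these genes the lack of overlap was therefore set by the rule and is no further result. Among the 15 largest losses, TMPRSS7, INSM1, ELF5 and TDRD9 had group means after 6 days under the median of all values, whereas AREG, TFPI2 and MYOM1 stayed well above it. TMPRSS7, a membrane-bound serine protease, measured 8.85, 8.15, 9.47 and 9.55 in the 4 arrays of day 10 and 4.67, 5.31, 4.3 and 4.22 in those of day 15. All day 15 arrays lay below the median of all values and all day 10 arrays above it. TMPRSS7 changed by -4.38 ± 0.79 (SE, adjusted p = 0.00106), at least 7.05-fold counted from that median. Untreated corpora lutea of day 10 ranged from 4.97 to 7.45. INSM1, a zinc finger factor of neuroendocrine cells, measured 7.77, 11.33, 8.46 and 9.16 at day 10 and 5.03, 4.17, 6.51 and 4.67 at day 15. Day 10 replicate 2 was the highest and day 15 replicate 4 the only day 15 array above the median of all values, with no overlap. INSM1 changed by -4.09 ± 0.62 (SE, adjusted p = 1.9e-04), at least 7.98-fold. Untreated tissue gave 6.33 to 8.89. ELF5, an epithelial transcription factor of the ETS family, measured 9.83, 6.98, 9.05 and 10.03 at day 10 and 4.99, 5.06, 4.93 and 5.41 at day 15. Here day 10 replicate 2 was the lowest of its group and still above every day 15 array, and the change was -3.87 ± 0.76 (SE, adjusted p = 0.00221), at least 6.9-fold. ELF5 in untreated tissue gave 4.61 to 6.26. TOX2, an HMG-box factor, measured 9.1, 8.92, 9 and 8.63 at day 10 and 6.16, 6.07, 6.71 and 6.75 at day 15. All 4 arrays of day 15 were below all 4 of day 10, with a change of -2.49 ± 0.40 (SE, adjusted p = 3.1e-04) and 6.79 to 8.57 in untreated tissue.

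TDRD9, a helicase of the pathway that silences transposons in germ cells, had the lowest adjusted p of the 30 largest changes. It measured 9.02, 9.24, 8.94 and 9.59 at day 10 and 5.68, 5.55, 5.61 and 5.7 at day 15, so that each group spanned less than 1 unit and the groups did not overlap. Its change was -3.57 ± 0.30 (SE, adjusted p = 1.0e-07), at least 8.08-fold, and untreated tissue lay between both groups at 6.88 to 7.5. HAL, histidine ammonia-lyase, which takes the first step of histidine breakdown, measured 9.49, 9.12, 9.54 and 8.93 at day 10 and 6.79, 5.6, 6.35 and 6.18 at day 15. The lowest day 10 array was above the highest of day 15. HAL changed by -3.04 ± 0.28 (SE, adjusted p = 3.1e-07), 8.22-fold, and untreated tissue gave 6.98 to 8.03. MFSD2A, a transporter of lysophospholipids, fell from 8.62, 9.36, 9.19 and 9.93 to 6.09, 6.41, 6.68 and 6.44, again without overlap (-2.87 ± 0.30 SE, adjusted p = 1.4e-06). MYOM1, a protein of the sarcomere's M-band, measured 11.89, 8.83, 11.6 and 11.55 at day 10 and 8.23, 7.77, 7.65 and 8.1 at day 15. Day 10 replicate 2 stood well below its group but above all of day 15, and the change was -3.03 ± 0.51 (SE, adjusted p = 5.5e-04). DAPL1 measured 11, 10.16, 8.86 and 10.69 at day 10 and 6.5, 6.06, 5.98 and 7.23 at day 15, and its change of -3.73 ± 0.55 (SE, adjusted p = 1.4e-04) was 13.3-fold. A further 4 of those 15 are best given by their change: KCNG3, a potassium channel subunit, by -2.88 ± 0.40 (SE) and ANKRD22 by -2.86 ± 0.46. LRRC15 changed by -2.80 ± 0.49 and TFPI2, an inhibitor of serine proteases, by -2.69 ± 0.58. The adjusted p of these 4 were 6.7e-05, 3.4e-04, 9.0e-04 and 0.0054, and in each the groups did not overlap, as the rule for the 15 required. The mean of KCNG3 over the 30 arrays of array sets 1 and 2 lay under the median of all values, a weak signal.

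AREG, amphiregulin, a ligand of the epidermal growth factor (EGF) receptor that luteinizing hormone induces in the follicle, was lost from a level near that of untreated tissue. It measured 13.6, 13.09, 13.28 and 13.06 at day 10 and 11.16, 8.47, 10.41 and 10.71 at day 15, and day 15 replicate 2 was the lowest. All untreated arrays (13.2 to 13.7) were also above all day 15 arrays. AREG changed by -3.07 ± 0.38 (SE, adjusted p = 2.0e-05), 8.41-fold. EGF itself rose from weak signal: 4.42, 4.57, 5.09 and 4.3 at day 10 and 6.85, 5.91, 6.5 and 5.38 at day 15. Both group means lay under the median of all values, so no fold is given. EGF changed by 1.56 ± 0.43 (SE, adjusted p = 0.0292). That call ended without day 10 replicate 1, 2 or 4 or day 15 replicate 1, 2 or 4 (adjusted p = 0.0529 to 0.103). Of the 8 measured EGF receptor ligands and receptors AREG and EGF were the ones called, where 6.83% of all genes were called. EGFR, the receptor, measured 7.88, 7.83, 7.41 and 8.5 at day 10 and 8.55, 8.29, 8.42 and 8.66 at day 15, and its change of 0.57 ± 0.28 (SE, adjusted p = 0.263) did not pass. HBEGF and BTC, further ligands, changed by -0.14 ± 0.33 and 0.00 ± 0.31 and were not called. IL1RL1, the receptor of interleukin 33, measured 10.93, 8.48, 9.38 and 9.78 at day 10 and 6.4, 7.11, 7.38 and 6.38 at day 15, a change of -2.82 ± 0.56 (SE, adjusted p = 0.00279) without overlap, while its ligand IL33 changed by 0.00 ± 0.47 and was not called.

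**Figure D2:**
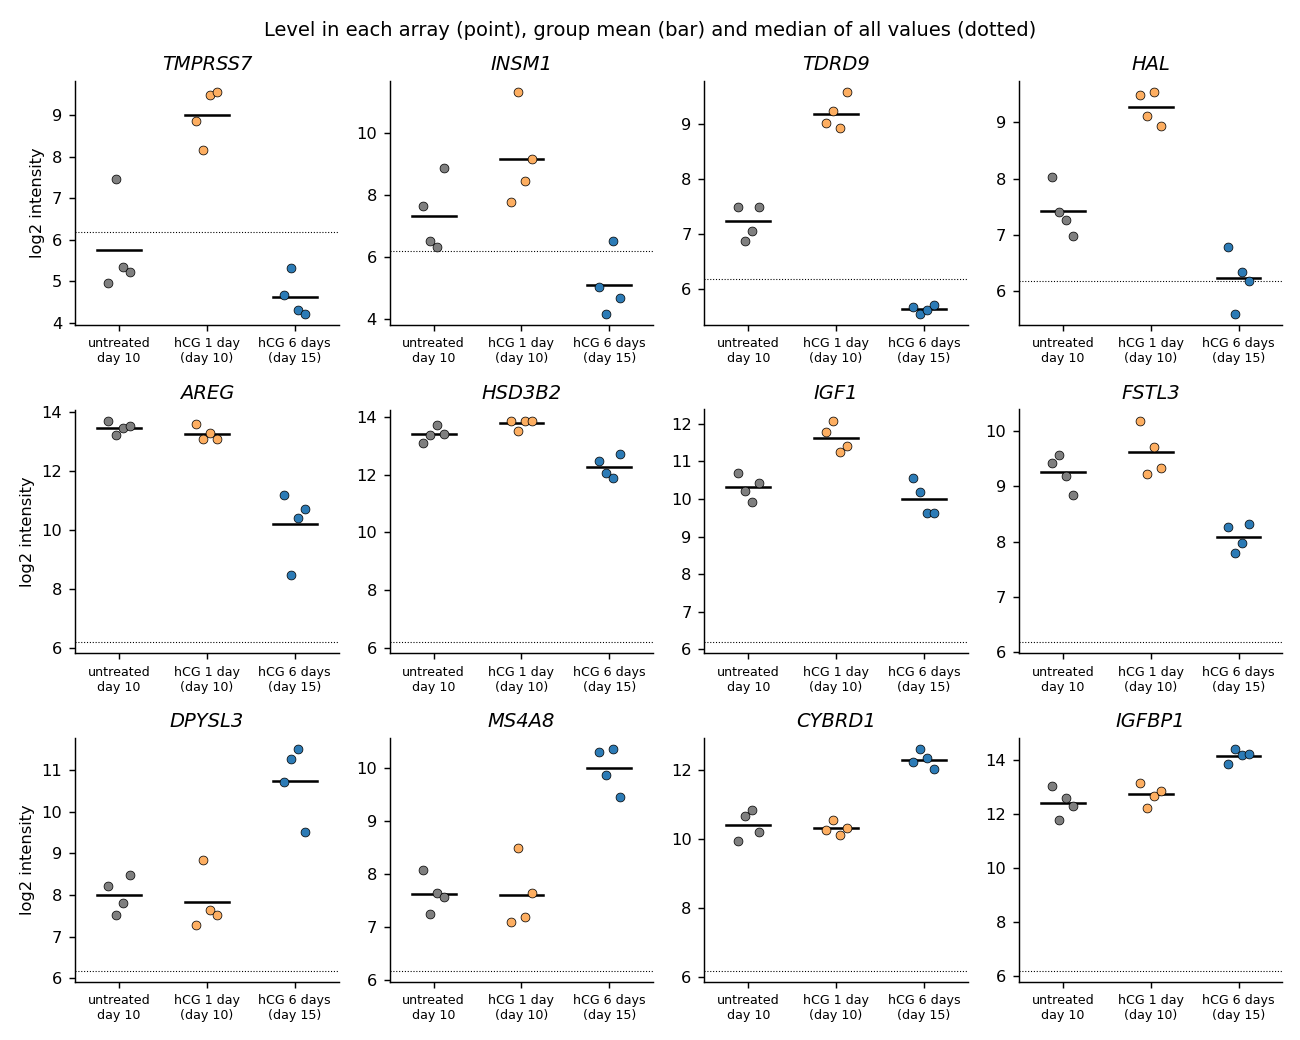
Levels of 12 genes in each array (log2 intensity, vertical) of untreated day 10, hCG 1 day and hCG 6 days, 4 arrays a group; bars are group means and the dotted line is the median of all values, 6.19. In each of the 12 genes the 4 arrays of 6 days lie apart from the 4 arrays of 1 day, below them for TMPRSS7 to FSTL3 and above them for DPYSL3 to IGFBP1. For TMPRSS7, INSM1, TDRD9, HAL, AREG, DPYSL3, MS4A8 and CYBRD1 the rule of choice required this.

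The largest gains included a cytoskeletal regulator, a serotonin receptor and enzymes. DPYSL3, a regulator of the cytoskeleton in growing neurites, measured 7.29, 8.83, 7.64 and 7.53 at day 10 and 10.7, 11.26, 11.5 and 9.51 at day 15. The lowest day 15 array, replicate 5, was above the highest of day 10. DPYSL3 rose by 2.92 ± 0.60 (SE, adjusted p = 0.00364), 7.58-fold, with 7.51 to 8.47 in untreated tissue. MS4A8, a membrane protein of the MS4A family, measured 7.11, 8.49, 7.19 and 7.64 at day 10 and 10.3, 9.88, 10.36 and 9.45 at day 15. Its groups did not overlap either, and the rise of 2.39 ± 0.31 (SE, adjusted p = 3.4e-05) was 5.25-fold from a level near that of untreated tissue (7.25 to 8.08). HTR2B, a serotonin receptor, measured 5.56, 6.03, 6.65 and 6.18 at day 10 and 8.44, 9.57, 8.61 and 7.51 at day 15, beside 8.57 to 9.28 in untreated tissue. So the day 10 group was the lowest of the 3, and the rise from it was 2.43 ± 0.56 (SE, adjusted p = 0.00883), at least 5.09-fold. The call ended without day 15 replicate 2 (adjusted p = 0.0508). B3GNT5, which builds lacto-series glycolipids, had 9.08, 8.79, 9.14 and 9.11 at day 10, 11.01, 11.34, 9.28 and 10.92 at day 15 and 9.67 to 10.69 in untreated tissue. Day 15 replicate 4 lay only just above day 10. B3GNT5 rose by 1.61 ± 0.40 (SE, adjusted p = 0.0156), a call that ended without day 15 replicate 1 or 2 (adjusted p = 0.0526 to 0.0785). LXN, latexin, an inhibitor of carboxypeptidases, measured 11.44, 11.85, 11.73 and 10.96 at day 10 and 12.75, 13.65, 13.32 and 13.35 at day 15, a rise of 1.77 ± 0.34 (SE, adjusted p = 0.00173) on an already high level.

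PLEKHA4 (2.04 ± 0.26 SE, adjusted p = 2.8e-05), XKRX (1.89 ± 0.34 SE, adjusted p = 0.00103), BAG2, a co-chaperone of Hsp70 (1.66 ± 0.25 SE, adjusted p = 1.6e-04), EVI2A (1.58 ± 0.31 SE, adjusted p = 0.00227) and ZDHHC19, a palmitoyltransferase (1.58 ± 0.23 SE, adjusted p = 1.3e-04), also rose with no overlap of groups. In ZDHHC19 the day 15 arrays were 10.74, 10.66, 10.73 and 10.78, against 8.97, 8.99, 8.91 and 9.75 at day 10. TRABD2A, a protease that inactivates Wnt proteins, rose by 2.04 ± 0.59 (SE, adjusted p = 0.0376) from 7.05, 9.76, 10.08 and 9.64 to 11.09, 10.68, 11.71 and 11.23. Day 10 replicate 1 was far below the rest of its group, and the call was lost without day 10 replicate 1 or 4 or day 15 replicate 1, 2, 4 or 5 (adjusted p = 0.051 to 0.16).

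Within steroid synthesis HSD3B2 fell, and neither STAR nor CYP19A1 was called. STAR measured 14.63, 14.69, 14.66 and 14.56 at day 10 and 14.81, 14.72, 14.81 and 14.71 at day 15, a change of 0.13 ± 0.06 (SE, adjusted p = 0.198) that did not pass. HSD3B2, the enzyme that makes progesterone from pregnenolone and the target of trilostane, measured 13.87, 13.51, 13.86 and 13.88 at day 10 and 12.48, 12.07, 11.87 and 12.71 at day 15. Every day 15 array was below every day 10 and every untreated array (13.09 to 13.71). HSD3B2 changed by -1.50 ± 0.28 (SE, adjusted p = 0.00167), a 2.82-fold fall. The near-identical gene HSD3B1 may share this probe set's signal. HSD11B1, which regenerates cortisol, measured 13.21, 13.26, 12.88 and 12.98 at day 10 and 12.24, 11.98, 12.31 and 12.25 at day 15, a change of -0.89 ± 0.15 (SE, adjusted p = 6.8e-04) with no overlap. NR5A2, a nuclear receptor that drives steroidogenic genes, changed by -0.59 ± 0.15 (SE, adjusted p = 0.0173), FDXR, the reductase that feeds FDX1, by -0.61 ± 0.16 (SE, adjusted p = 0.0245) and HSD17B7, of estradiol and cholesterol synthesis, by -0.95 ± 0.26 (SE, adjusted p = 0.0304). Their calls were less firm. NR5A2 lost its call without day 10 replicate 1 or day 15 replicate 2 (adjusted p = 0.0631 to 0.0913). FDXR lost its call without day 10 replicate 1, 3 or 4 or day 15 replicate 4 or 5 (adjusted p = 0.0536 to 0.0756). HSD17B7 lost its call without day 10 replicate 3 or 4 or day 15 replicate 2 or 5 (adjusted p = 0.0566 to 0.159). CYP19A1, aromatase, measured 13.79, 13.23, 13.69 and 13.42 at day 10 and 13.78, 12.63, 13.63 and 13.81 at day 15 with overlapping groups (-0.07 ± 0.44 SE, adjusted p = 0.956). CYP17A1, needed for androgens, changed by 0.60 ± 0.41 (SE, adjusted p = 0.466) and FDX1 by -0.01 ± 0.09 (SE, adjusted p = 0.955); neither passed. MGARP, a mitochondrial protein of steroid-producing cells, rose by 0.88 ± 0.18 (SE, adjusted p = 0.00311), though its 3 other kept probe sets had the opposite sign and none of them was called. In all, 5 of 20 measured members of the list fell and 1 rose, where 4.27% of all genes fell and 2.56% rose, and the median was -0.04. Cholesterol synthesis had 1 fall (HSD17B7) among 19 members and a median of 0.02, and cholesterol uptake, storage and efflux 1 fall among 14, APOA1 of high-density lipoprotein (-1.05 ± 0.25 SE, adjusted p = 0.0104).

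Targets of progestins and glucocorticoids moved both ways. FKBP5, a chaperone partner of their receptors, measured 9.02, 7.64, 8.69 and 8.56 at day 10 and 7.76, 6.72, 6.76 and 6.68 at day 15. Day 15 replicate 1 overlapped with day 10 replicate 2, and the change was -1.50 ± 0.34 (SE, adjusted p = 0.00771). GADD45B, a stress-induced gene, fell by 1.29 ± 0.32 (SE, adjusted p = 0.0145), a call that ended without day 10 replicate 4 (adjusted p = 0.0506). IGFBP1, which binds insulin-like growth factors and marks the decidua, measured 13.16, 12.24, 12.68 and 12.86 at day 10 and 13.84, 14.41, 14.18 and 14.22 at day 15. All day 15 arrays were above all day 10 and untreated arrays (11.77 to 13.04), with a rise of 1.43 ± 0.34 (SE, adjusted p = 0.0109), 2.69-fold. SGK1, a kinase of salt transport, rose from 11.44, 11.4, 11.26 and 11.41 to 12.12, 12.2, 12.06 and 11.91 (0.70 ± 0.17 SE, adjusted p = 0.0151), a call that ended without day 10 replicate 3 or day 15 replicate 2 (adjusted p = 0.0511 to 0.0571). PGR, the progesterone receptor, was near the median of all values with 6.73, 6.33, 6.14 and 6.87 at day 10 and 6.35, 5.98, 5.42 and 5.84 at day 15, and its change of -0.62 ± 0.24 (SE, adjusted p = 0.131) did not pass. Of 21 members measured, 3 rose (IGFBP1, SGK1 and PGRMC2) and 2 fell, where 2.56% of all genes rose and 4.27% fell. The list also holds receptors and related proteins (PGR, NR3C1, PGRMC1, PGRMC2 and FKBP4), so its counts and median are not of targets alone. The median was -0.30 beside -0.02 over all genes. PGRMC2, a membrane protein related to progesterone binding, rose by 0.40 ± 0.11 (SE, adjusted p = 0.0361), a call that ended without day 10 replicate 2 or 3 or day 15 replicate 1 or 2 (adjusted p = 0.0679 to 0.16). Without day 10 replicate 4 that median was -0.16. Among the 10 prostaglandin genes PTGDR, a receptor of prostaglandin D2, fell from 7.36, 6.55, 7.89 and 6.35 to 4.44, 4.42, 5.02 and 5.39 (-2.22 ± 0.52 SE, adjusted p = 0.0104), and HPGD, which inactivates prostaglandins, changed by -1.25 ± 0.40 (SE, adjusted p = 0.065) without passing. The hCG groups did not overlap for HPGD, and of its 4 other kept probe sets all had the same sign and 1 was called. With all 33 arrays HPGD passed as a fall (adjusted p = 0.0308). The mean of the prostaglandin list, with PTGDR and HPGD in it, was 7.52 to 7.92 after 1 day, 7.29 to 7.34 after 6 days and 7.33 to 7.88 in untreated tissue. The median change of the list was -0.08, with 3 genes above 0 and 7 below. PTGDR was its 1 called gene, where 4.27% of all genes fell.

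INHBA rose between 1 and 6 days of hCG, and FSTL3 and FST, which bind activin, fell. INHBA, the subunit of activin A and inhibin A, measured 10.22, 11.15, 10.98 and 11.15 at day 10 and 12.94, 12.03, 11.9 and 13.03 at day 15, beside 11.11 to 13.08 in untreated tissue. The 2 hCG groups did not overlap, and the rise was 1.60 ± 0.44 (SE, adjusted p = 0.03), 3.03-fold. The call ended without day 10 replicate 1 or 3 or day 15 replicate 1 or 5 (adjusted p = 0.061 to 0.0993). INHA, the inhibin alpha subunit, was at 12.98, 13.41, 13.48 and 13.07 and 13.23, 13.1, 13.62 and 13.39, a change of 0.10 ± 0.13 (SE, adjusted p = 0.74) that did not pass. FSTL3, which binds and neutralizes activin, measured 10.19, 9.23, 9.71 and 9.33 at day 10 and 8.26, 7.79, 7.98 and 8.33 at day 15. All day 15 arrays were below all day 10 and untreated arrays (8.84 to 9.57), a fall of 2.88-fold (-1.53 ± 0.24 SE, adjusted p = 2.5e-04). FST, follistatin, the other such binding protein, measured 10.53, 11.08, 10.35 and 11.1 at day 10 and 9.53, 9.57, 9.81 and 9.78 at day 15 (-1.09 ± 0.28 SE, adjusted p = 0.0173), a call that ended without day 10 replicate 2 or 4 or day 15 replicate 2 (adjusted p = 0.0513 to 0.0626). LTBP1, which stores latent TGF-beta in the matrix, rose from 9.26, 10.33, 9.5 and 9.45 to 11.02, 10.78, 11.87 and 10.59 (1.43 ± 0.30 SE, adjusted p = 0.00467). SMAD3, a signal carrier of TGF-beta and activin, rose by 0.79 ± 0.20 (SE, adjusted p = 0.0201), the decoy receptor BAMBI by 0.98 ± 0.26 (SE, adjusted p = 0.0216) and the receptor TGFBR1 by 0.57 ± 0.16 (SE, adjusted p = 0.026). SMAD3 lost its call without day 10 replicate 1 or day 15 replicate 2 (adjusted p = 0.0635 to 0.0804). BAMBI lost its call without day 10 replicate 2 or 3 or day 15 replicate 2, 4 or 5 (adjusted p = 0.0506 to 0.0655), and TGFBR1 without day 10 replicate 2 or 3 or day 15 replicate 1 or 2 (adjusted p = 0.0551 to 0.106). Of 30 members measured 5 rose and 2 fell, where 2.56% of all genes rose and 4.27% fell, and the median was 0.12. The mean of the activin list was 8.75 to 8.88 in the day 10 arrays and 8.95 to 9.08 in those of day 15, beside 8.81 to 9.00 in untreated tissue.

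Of the insulin-like growth factors, IGF1 measured 11.79, 12.09, 11.25 and 11.41 at day 10 and 10.57, 10.2, 9.64 and 9.64 at day 15, beside 9.93 to 10.7 in untreated tissue. The hCG groups did not overlap, and the fall was 3.08-fold (-1.62 ± 0.28 SE, adjusted p = 7.6e-04). Its 3 other kept probe sets had the same sign and 2 were called. IGF2 changed by -0.62 ± 0.19 (SE, adjusted p = 0.0439) and the binding protein IGFBP2 by -0.58 ± 0.17 (SE, adjusted p = 0.0364). These calls near the threshold ended, for IGF2, without day 10 replicate 3 or 4 or day 15 replicate 1, 2, 4 or 5 (adjusted p = 0.0635 to 0.157), and, for IGFBP2, without day 10 replicate 2, 3 or 4 or day 15 replicate 1 or 2 (adjusted p = 0.05 to 0.152). IRS2, an adaptor of the insulin receptor, changed by -0.75 ± 0.30 (SE, adjusted p = 0.155) and did not pass. Among 19 members 3 fell and 1 (IGFBP1) rose, where 4.27% of all genes fell and 2.56% rose, and the median was -0.10.

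Genes of cell division were lower as a group after 6 days. Of 37 measured, 15 fell and none rose, against 4.27% of all genes called lower, 35 lay below 0, and the median change was -0.54. CCNB1, cyclin B1 of mitotic entry, measured 9.37, 8.65, 9.25 and 8.78 at day 10 and 7.69, 7.57, 7.95 and 8.51 at day 15. Its highest day 15 array was replicate 5, and the groups did not overlap (-1.08 ± 0.25 SE, adjusted p = 0.0104). MKI67, the proliferation marker Ki-67, measured 7.77, 7.26, 8.01 and 7.8 at day 10 and 6.77, 6.26, 6.6 and 7.37 at day 15, with day 10 replicate 2 below day 15 replicate 5 (-0.96 ± 0.24 SE, adjusted p = 0.0147). TPX2, a spindle assembly factor, measured 7.58, 7.47, 7.42 and 7.77 at day 10 and 6.51, 6.06, 6.48 and 7.12 at day 15 with no overlap (-1.02 ± 0.21 SE, adjusted p = 0.00341). MYBL2 and FOXM1, transcription factors of the cycle, changed by -0.62 ± 0.12 (SE, adjusted p = 0.00221) and -0.81 ± 0.20 (SE, adjusted p = 0.017). MYBL2 lost its call in a fit of only the 8 arrays (adjusted p = 0.0897) and with the mark in braces (adjusted p = 0.0913) or the letter of the array name (adjusted p = 0.103) as a block. The phosphatase CDC25B changed by -0.67 ± 0.16 (SE, adjusted p = 0.012), while PCNA of the replication fork, at -0.15 ± 0.14, and TOP2A, at -0.89 ± 0.34, did not pass. The 1 other kept probe set of TOP2A was called as a fall, and the quoted one passed with the mark in braces as a block (adjusted p = 0.0192). The mean level of the list was 8.25 to 8.68 in untreated arrays, 8.15 to 8.51 after 1 day and 7.63 to 8.13 after 6 days. CCNB1 lost its call without day 15 replicate 2 (adjusted p = 0.0521), MKI67 without day 10 replicate 3 or day 15 replicate 2 (adjusted p = 0.0595 to 0.0793), FOXM1 without day 10 replicate 3 or day 15 replicate 1 or 2 (adjusted p = 0.0507 to 0.0774) and CDC25B without day 10 replicate 3 or 4 or day 15 replicate 4 (adjusted p = 0.0519 to 0.0596). The number of falls depended on single arrays more than the median did. It was 3 without day 10 replicate 3 or without day 15 replicate 2, 7 without day 10 replicate 1 or without day 15 replicate 1, and 9 without day 10 replicate 4 or without day 15 replicate 4, whereas the median stayed between -0.62 and -0.47. In a fit of only the 8 arrays 4 genes fell, with the mark in braces as a block 8, and with the letter of the array name as a block 1, at the same median of -0.54. Within the arrays with braces 2 fell and within those without braces none.

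Of the genes of iron and copper handling, CYBRD1, CP and FTL rose. CYBRD1, a reductase that prepares iron for uptake, measured 10.27, 10.56, 10.11 and 10.33 at day 10 and 12.23, 12.62, 12.36 and 12.04 at day 15. The day 10 arrays lay within the untreated range (9.94 to 10.84) and all day 15 arrays above it, a rise of 2.00 ± 0.24 (SE, adjusted p = 1.5e-05), 3.99-fold. CP, ceruloplasmin, the copper protein that oxidizes iron, rose from weak signal: 5.08, 4.8, 5.25 and 5.12 at day 10 and 6.12, 8.22, 6.83 and 6.82 at day 15. Day 15 replicate 2 was the highest, and the change was 1.94 ± 0.29 (SE, adjusted p = 1.9e-04), at least 1.76-fold counted from the median of all values. FTL, the light chain of ferritin, which stores iron, measured 9.83, 9.89, 9.6 and 9.51 at day 10 and 10.75, 11.04, 10.48 and 10.16 at day 15 without overlap (0.90 ± 0.19 SE, adjusted p = 0.00423). HP, haptoglobin, which binds free hemoglobin, was higher in 3 arrays of day 15 than in any of day 10 (7.46, 6.96, 7.78 and 9.58 against 10.92, 9.77, 10.81 and 8.1), but its change of 1.95 ± 0.73 (SE, adjusted p = 0.121) did not pass. The iron exporter SLC40A1 (0.54 ± 0.17 SE, adjusted p = 0.057), the transferrin receptor TFRC (-0.58 ± 0.19 SE, adjusted p = 0.0771) and the metallothionein MT2A (-0.87 ± 0.27 SE, adjusted p = 0.0548) did not pass either. MT2A measured 14.57, 14.38, 14.51 and 14.49 at day 10 and 13.81, 13.47, 13.28 and 13.89 at day 15, without overlap. It passed as a fall in the fits of only the 8 arrays (adjusted p = 0.0108) and of array set 1 (adjusted p = 0.00129), after quantile normalization (adjusted p = 0.0494), with braces (adjusted p = 0.00368) or letter (adjusted p = 0.0149) as a block and without day 15 replicate 5 (adjusted p = 0.0491), and it fell in the arms with trilostane and R5020 described below (-1.31 ± 0.29 SE, adjusted p = 0.0241). In all 3 of 14 members rose, against 2.56% of all genes, and none passed as a fall in the fit of 30 arrays. The median was 0.33, and 0.12 when all probe sets of a gene were averaged. The mean of the list, with the 3 called rises and HP in it, was 9.45 to 9.66 in untreated arrays, 9.62 to 9.86 after 1 day and 10.09 to 10.43 after 6 days. HBB of red cells measured 6.25, 7.05, 7.05 and 7.55 at day 10 and 9.17, 8.45, 7.96 and 7.25 at day 15 (1.23 ± 0.43 SE, adjusted p = 0.0952). The part of blood in the change of the iron genes was not tested.

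**Figure D3:**
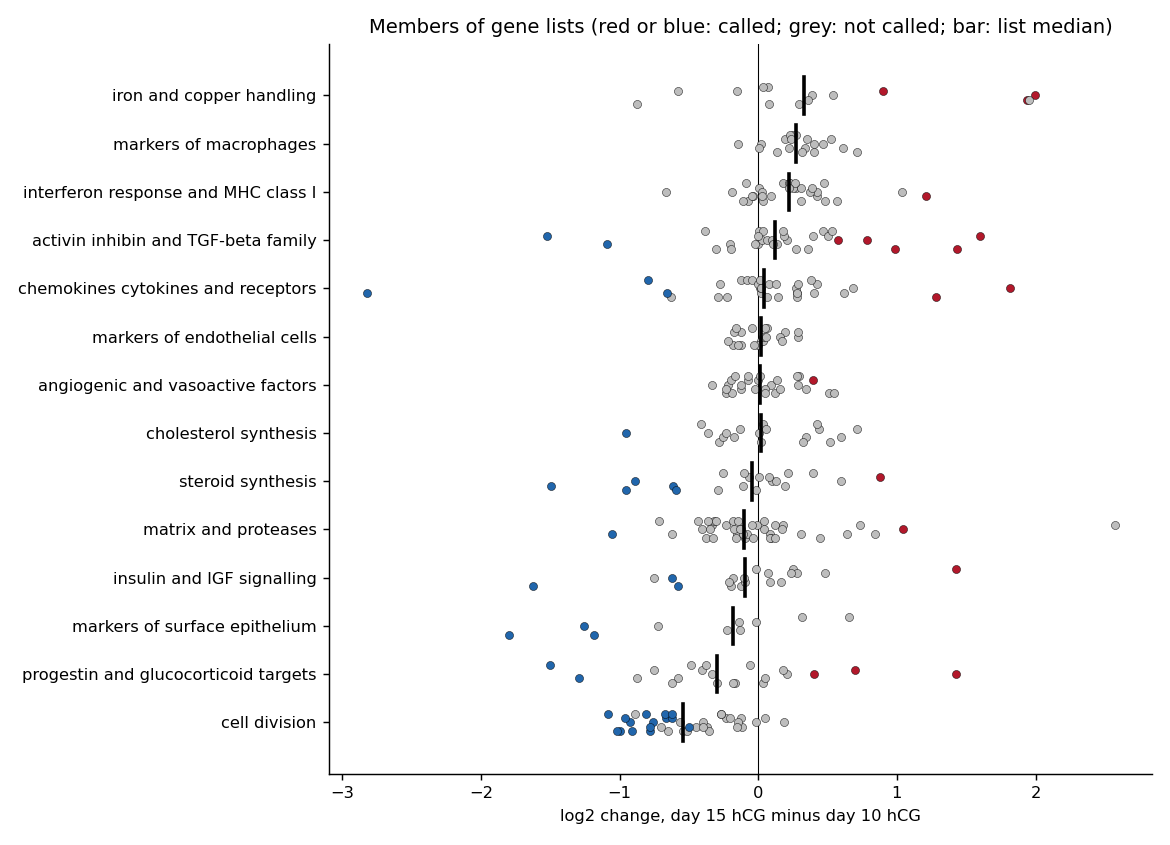
Log2 change from 1 to 6 days of hCG (horizontal) for the measured members of 14 gene lists, 1 point a gene; called genes are red (higher) or blue (lower), others grey, and the black bar is the list's median. Cell division lies furthest to the left, with a median of -0.54 and 15 called falls, and iron and copper handling furthest to the right, with a median of 0.33.

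Of the markers of cell types other than luteal cells, those of surface epithelium held called genes. Of 10 markers of surface epithelium 3 fell and none rose, where 4.27% of all genes fell (median -0.18). CLDN3, a tight junction protein, measured 10.47, 11.43, 11.53 and 11.23 at day 10 and 8.88, 9.5, 9.86 and 9.23 at day 15, a change of -1.80 ± 0.36 (SE, adjusted p = 0.00281) without overlap. KRT8, an epithelial keratin, changed by -1.18 ± 0.27 (SE, adjusted p = 0.00787) and DSP, of desmosomes, by -1.26 ± 0.36 (SE, adjusted p = 0.0335), and the call of DSP ended without day 10 replicate 1, 3 or 4 or day 15 replicate 2 or 4 (adjusted p = 0.0661 to 0.133). KRT8 lost its call in a fit of only the 8 arrays (adjusted p = 0.0768) and with the mark in braces as a block (adjusted p = 0.0844). The keratins KRT18 (-0.14 ± 0.25) and KRT19 (0.65 ± 0.49) and the mesothelial factor WT1 (0.31 ± 0.17) were not called. The mean of the epithelial list, with the 3 called falls in it, was 8.32 to 8.65 after 1 day and 7.85 to 8.26 after 6 days. The part of epithelium in the other falls was not tested. None of the 19 macrophage markers was called, although 18 lay above 0, with a median of 0.27, and the mean of the list was 8.58 to 8.94 after 1 day, 8.74 to 9.21 after 6 days and 8.27 to 9.48 in untreated tissue. CD68, a lysosomal protein of macrophages, measured 9.21, 9.18, 9.14 and 9.04 at day 10 and 9.64, 9.73, 9.4 and 9.08 at day 15 (0.32 ± 0.22 SE, adjusted p = 0.47). No marker was called among 21 of endothelial cells (median 0.02), 13 of pericytes and smooth muscle (0.005), 15 of fibroblasts (-0.02), 12 of lymphocytes (-0.08), 3 of neutrophils and mast cells (0.36) and 2 of red cells (0.67). Of 14 granulosa cell markers INHBA rose and NR5A2 fell, where 2.56% of all genes rose and 4.27% fell.

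Among chemokines, cytokines and their receptors 2 of 32 rose and 3 fell, where 2.56% of all genes rose and 4.27% fell. IL1RN, the antagonist of the interleukin 1 receptor, measured 6.83, 7.7, 6.8 and 6.62 at day 10 and 7.79, 9.12, 8.99 and 9.31 at day 15, beside 7.57 to 8.51 in untreated tissue. The groups did not overlap, and the rise was 1.82 ± 0.38 (SE, adjusted p = 0.00426), 3.52-fold, with both of its other kept probe sets called in the same direction. CCL3, a chemokine for monocytes, rose by 1.28 ± 0.38 (SE, adjusted p = 0.0464), a call that ended without day 10 replicate 1, 2, 3 or 4 or day 15 replicate 1, 2 or 4 (adjusted p = 0.0539 to 0.185). The cytokine LIF fell by 0.66 ± 0.14 (SE, adjusted p = 0.00473) and OSMR, a receptor subunit for oncostatin M, by 0.80 ± 0.18 (SE, adjusted p = 0.00681), besides IL1RL1 above. Of 30 genes of the interferon response and MHC class I, ISG20, an RNA-degrading enzyme, was the 1 called: it rose from 7.2, 7.3, 7.71 and 7.52 to 8.77, 8.7, 8.85 and 8.24 (1.21 ± 0.22 SE, adjusted p = 0.00122). The median of that list was 0.23, but -0.03 within the arrays without the mark in braces. None of 9 genes of MHC class II was called (median 0.24).

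**Figure D4:**
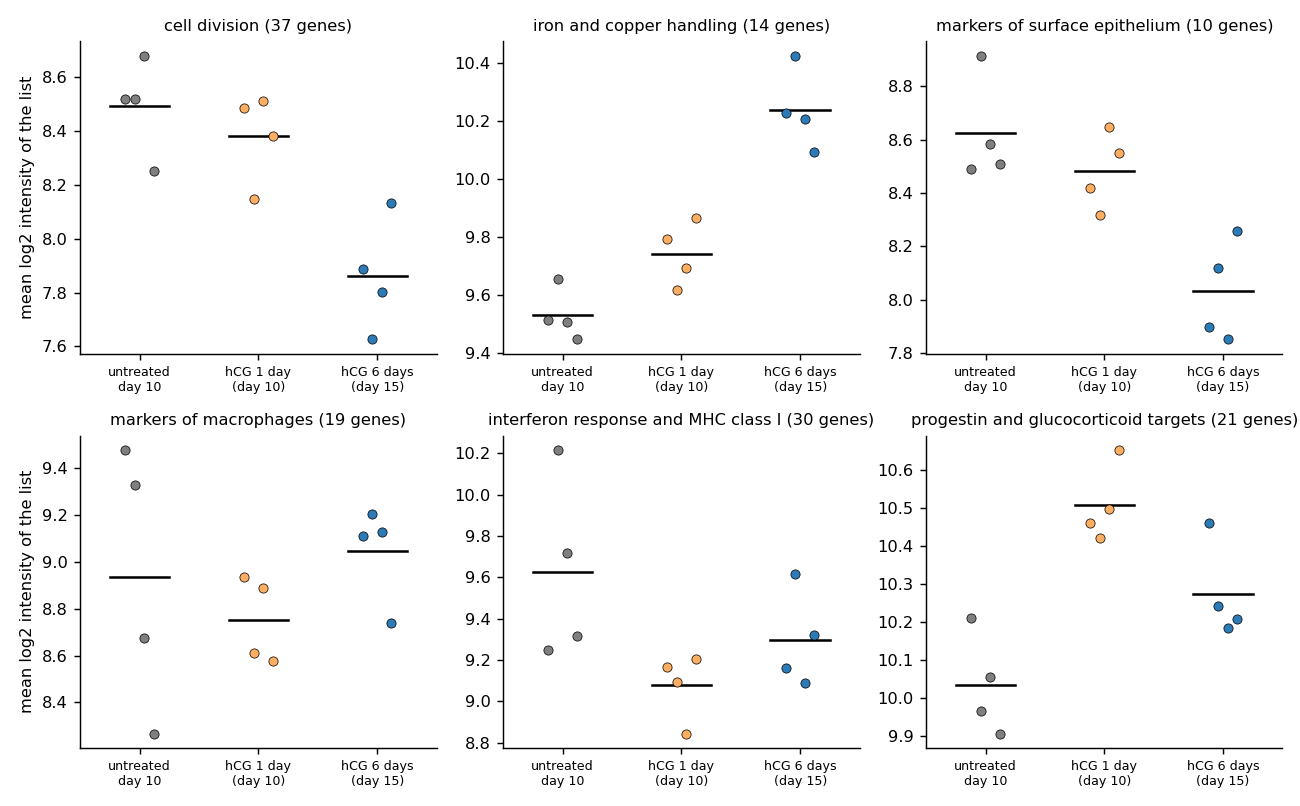
Mean log2 intensity over the measured members of 6 gene lists (vertical) in each array of untreated day 10, hCG 1 day and hCG 6 days; bars are group means. The hCG groups do not overlap for cell division, iron and copper handling and markers of surface epithelium, and overlap for markers of macrophages, for interferon response and for progestin and glucocorticoid targets. The 6 lists were picked from 32, and a mean can follow a few members. Among epithelial markers 3 of 10 were called as falls (list median -0.18). Among iron and copper genes 3 of 14 were called as rises (list median 0.33).

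The other lists held at most 2 calls each, where 2.56% of all genes rose and 4.27% fell. Such counts are not read as results about the lists. In 27 genes of cyclic AMP signalling, PPARGC1A, a coactivator of mitochondrial genes, rose from weak signal: 5.08, 5.46, 5.03 and 4.81 at day 10 and 6.26, 6.88, 6.58 and 5.74 at day 15 (1.27 ± 0.29 SE, adjusted p = 0.00883), a call that ended without day 15 replicate 2 (adjusted p = 0.0501). All day 10 arrays and day 15 replicate 5 of PPARGC1A lay under the median of all values. RGS2, a brake on G protein signalling, fell from 13.28, 13.12, 13.52 and 13.1 to 12.97, 12.36, 11.31 and 11.88 (-1.13 ± 0.30 SE, adjusted p = 0.0249). RGS2 lost its call without day 10 replicate 1 or 3 or day 15 replicate 4 or 5 (adjusted p = 0.053 to 0.098). PPARGC1A was also the 1 call among 22 genes of oxidative phosphorylation. None of 18 immediate early transcription factors and none of 19 genes of endoplasmic reticulum stress was called. In 42 genes of matrix and proteases, ADAMTS5, a protease of proteoglycans, rose from 10.13, 10.34, 9.96 and 10.09 to 11.49, 11.49, 10.9 and 10.81 (1.04 ± 0.28 SE, adjusted p = 0.0228). VCAN, a proteoglycan that such proteases cleave, fell from 11.99, 12.22, 10.95 and 11.26 to 10.57, 10.37, 10.88 and 10.37 (-1.06 ± 0.30 SE, adjusted p = 0.0327), with all 4 other kept probe sets of VCAN called as falls. Both calls depended on single arrays: ADAMTS5 was lost without day 10 replicate 3 or 4 or day 15 replicate 1 or 2 (adjusted p = 0.0545 to 0.0908), and VCAN without day 10 replicate 1 or 2 or day 15 replicate 1, 2 or 5 (adjusted p = 0.065 to 0.111). LUM, lumican, had the highest change of that list, 2.57 ± 1.21 (SE, adjusted p = 0.239), but it was not called, and day 15 replicate 2 alone stood high: its arrays were 5.32, 4.08, 4.25 and 3.89 at day 10 and 4.62, 10.94, 5.73 and 6.55 at day 15. Among 27 angiogenic and vasoactive factors PDGFB, a growth factor for pericytes, rose by 0.39 ± 0.11 (SE, adjusted p = 0.0367). Of its 4 other kept probe sets 3 had the opposite sign, and the call ended without day 10 replicate 1, 3 or 4 or day 15 replicate 1 or 2 (adjusted p = 0.0525 to 0.142).

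In 20 genes of glycolysis and hypoxia HK1, hexokinase 1, fell by 1.04 ± 0.20 (SE, adjusted p = 0.00171) and PFKP, a phosphofructokinase, rose by 0.68 ± 0.20 (SE, adjusted p = 0.0445). Over all genes, 2.56% rose and 4.27% fell. MGST1, a glutathione transferase of membranes, was the 1 rise among 24 antioxidant genes (0.66 ± 0.19 SE, adjusted p = 0.0396). RXRA, the partner of retinoid receptors, was the 1 fall among 13 genes of retinoid handling (-0.54 ± 0.16 SE, adjusted p = 0.041). CFLAR, an inhibitor of caspase 8, was the 1 fall among 17 genes of apoptosis and survival (-0.56 ± 0.12 SE, adjusted p = 0.00554). Calls ended for PFKP without day 10 replicate 1, 2 or 4 or day 15 replicate 2, 4 or 5 (adjusted p = 0.0517 to 0.139), for MGST1 without day 10 replicate 1, 3 or 4 or day 15 replicate 2 or 4 (adjusted p = 0.0744 to 0.111) and for RXRA without day 10 replicate 1, 2, 3 or 4 or day 15 replicate 1 or 2 (adjusted p = 0.0593 to 0.148).

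The same interval was measured in separate arrays, in animals given hCG with trilostane and R5020, with no array shared with the comparison above. There 342 probe sets (1.19%) were called, 146 (0.508%) higher and 196 (0.682%) lower at day 15, and with 1 probe set a gene 152 genes (1.45%) were called, of which 67 (0.64%) were higher and 85 (0.812%) lower. Of the 268 genes that rose with hCG alone, 260 (97%) had a change above 0 in these arms, as had 52.6% of all genes, and 43 were called there, 16% of the first list and 64.2% of the second. Of the 447 that fell, 443 (99.1%) lay below 0, as did 47.4% of all genes, and 67 were called, 15% and 78.8% of the lists. In the opposite direction 1 gene was called, MMP16, a membrane-bound matrix metalloproteinase named here after its values were seen: it changed by 0.83 ± 0.23 (SE, adjusted p = 0.0271) with hCG alone and by -1.05 ± 0.24 (SE, adjusted p = 0.0299) in these arms. The median change was 0.69 with hCG alone and 0.48 in the arms with trilostane and R5020 for the first group of genes, and -0.73 and -0.45 for the second, which had been chosen for their change with hCG alone. All 30 of the largest changes had the same sign in both. HAL changed by -3.08 ± 0.30 (SE), TDRD9 by -2.51 ± 0.32, AREG by -2.27 ± 0.41, MS4A8 by 2.22 ± 0.34 and CYBRD1 by 1.58 ± 0.26, and all of these were called. HSD3B2, -1.98 ± 0.30, and HSD11B1, -1.12 ± 0.16, were lower there too (adjusted p = 0.00145 and 7.0e-04). INHBA changed by 0.41 ± 0.48 and TRABD2A by 0.77 ± 0.64, neither of which passed. For cell division the median was -0.52, with 34 of 37 genes below 0 and 2 called falls. For iron and copper handling it was 0.43, for macrophage markers 0.52 and for the interferon response -0.05.

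Whether the change from 1 to 6 days itself differed with trilostane and R5020 was tested as the difference of the 2 changes, in which the drugs and the array set cannot be told apart. No probe set passed in limma (smallest adjusted p = 0.189, with 767 at an unadjusted p under 0.05); without day 10 hCG replicate 2, 1 probe set passed. For HSD3B2 the hCG change minus that with trilostane and R5020 was 0.48 ± 0.42 (SE), for INHBA 1.18 ± 0.65 and for TMPRSS7 -1.44 ± 1.16. The 342 calls of these arms also rested on single arrays. There were 33 higher and 48 lower probe sets without day 15 replicate 1, 40 and 67 without day 10 replicate 1, and 67 and 86 without day 10 replicate 3. Without day 15 replicate 2 there were 67 and 93, and without day 10 replicate 2 there were 90 and 104. Without day 15 replicate 3 there were 189 higher and 173 lower, which turns the balance of 146 and 196, and without day 10 replicate 4 there were 159 and 237.

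**Figure D5:**
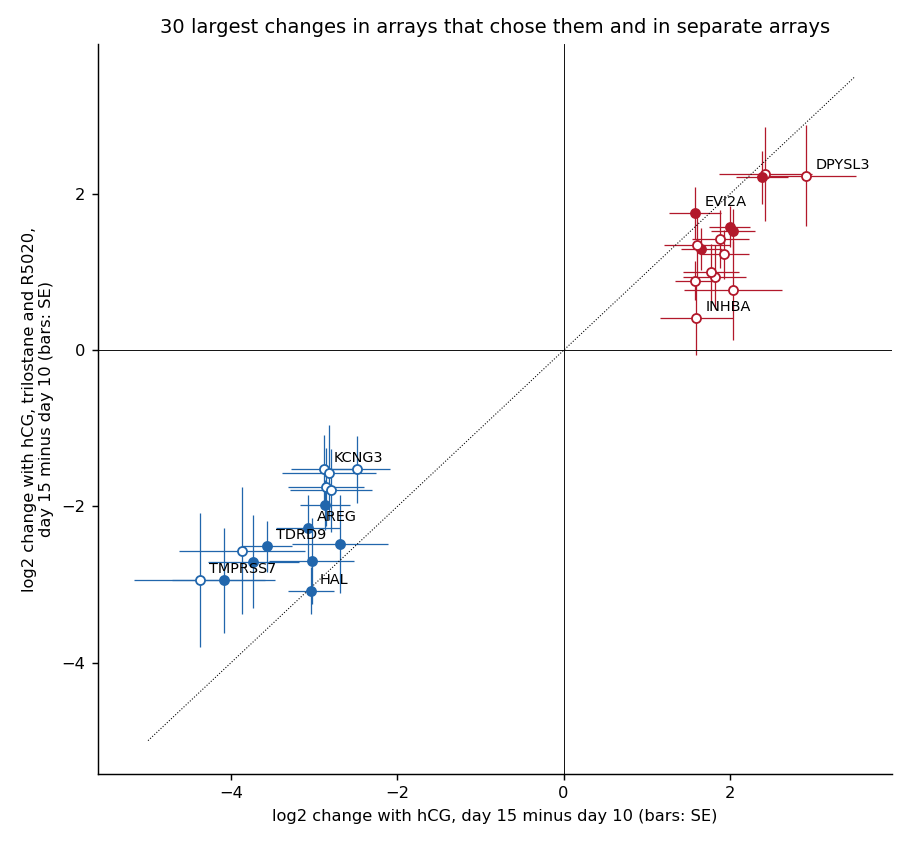
Log2 change from 1 to 6 days for the 15 largest rises (red) and 15 largest falls (blue), with hCG alone (horizontal, 4 arrays against 4) and with hCG, trilostane and R5020 (vertical, 3 arrays against 4); bars are SE, filled points were called in the second pair of groups and the dotted line marks equal change. All 30 genes, chosen for their size on the horizontal axis, keep their sign and 13 are filled. On the vertical axis 14 of the 15 rises and 14 of the 15 falls lie nearer to 0.

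A few genes outside the rule for naming were chosen after their values were seen. RLN2, relaxin, a hormone that luteal tissue makes in pregnancy, measured 11.6, 13.76, 13.32 and 13.4 at day 10 and 14.46, 14.62, 14.56 and 14.35 at day 15. Day 10 replicate 1 was the lowest of its group by a wide margin, the day 15 arrays lay close together, and the rise was 1.48 ± 0.39 (SE, adjusted p = 0.0231). The RLN2 call ended without day 10 replicate 1 or day 15 replicate 2 (adjusted p = 0.0694 to 0.103). It also ended with only the 8 arrays (adjusted p = 0.0944) and with array set 1 alone (adjusted p = 0.101). The same held with braces (adjusted p = 0.0654) or letter (adjusted p = 0.111) as a block. MXRA5, a matrix proteoglycan, measured 9.54, 9.8, 9.84 and 9.83 at day 10 and 11.34, 10.74, 11.68 and 11.19 at day 15, beside 11.03 to 12.01 in untreated tissue (1.48 ± 0.25 SE, adjusted p = 6.2e-04). SDC1, the heparan sulfate proteoglycan syndecan 1, rose by 1.46 ± 0.35 (SE, adjusted p = 0.0111), a call that ended without day 10 replicate 1 (adjusted p = 0.0537). The SDC1 call also ended with only the 8 arrays (adjusted p = 0.0507) and with the letter as a block (adjusted p = 0.0672). ADA, adenosine deaminase, which clears adenosine, measured 11.34, 11.42, 11.91 and 11.57 at day 10 and 9.24, 8.89, 9.29 and 10.03 at day 15, beside 9.66 to 10.34 in untreated tissue (-2.20 ± 0.36 SE, adjusted p = 5.2e-04). Of the 2 other kept probe sets of ADA, 1 was called as a fall, and the other had the opposite sign and was not called. ARNTL, a core factor of the circadian clock, measured 10.23, 10.26, 10.22 and 10.62 at day 10 and 8.7, 9.02, 8.55 and 8.08 at day 15, with 9.1 to 9.85 in untreated tissue (-1.74 ± 0.23 SE, adjusted p = 3.8e-05). CXADR, an adhesion protein of cell junctions, fell from 9.88, 8.75, 9.28 and 10.17 to 8.24, 7.85, 7.58 and 7.52 (-1.73 ± 0.27 SE, adjusted p = 2.3e-04). In ADA, ARNTL, CXADR and MXRA5 the hCG groups did not overlap.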

How the data were processed

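Per the labels' protocols, total RNA of dissected luteal tissue was measured on Affymetrix arrays designed for the rhesus genome. The deposited values are on a log2 scale, 1 per probe set and array. How the authors made them (background correction, summarization, normalization) is not given in the sources used here. Each of 33 arrays was centred on its median. Of 52865 probe sets, 99 controls were left out, and 28722 were kept that exceeded 6.19, the median of all values, in 4 or more of the 30 arrays of array sets 1 and 2; array set is the number that follows the prefix of the array names. Of these, 17541 had 1 symbol in the platform annotation, 240 several and 10941 none; 1143, 13 and 542 of the called ones. Each of 10470 genes is represented by its probe set with the highest mean. Limma 3.58.1 in R 4.3.3 (lmFit, eBayes with trend) fitted 1 coefficient for each of 8 combinations of group and array set (22 residual degrees of freedom). Contrasts stayed within an array set, were two-sided and were adjusted over all kept probe sets; every adjusted p in the text is from this fit unless another is named. The fit was tested on simulated data. Named were the 15 largest rises and 15 largest falls among called genes whose groups do not overlap (no LOC symbols), up to 4 called members of each of 32 gene lists by adjusted p, and STAR, HSD3B2, CYP19A1, PGR, FKBP5 and LHCGR; other list members are quoted as examples. Where a group mean was under 6.19, the fold is counted from 6.19 as "at least". The comparison, lists and rules were chosen with earlier results of these data known. The number of arrays limits the precision. Alternatives were other filters, centrings, sets of arrays, blocks and variance models, and leaving out each array. Promoter and protein sequences and genome positions were not used here. Figures were drawn with matplotlib 3.10.9.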

Additional observations from a re-analysis of the deposited data

Results flagged for a closer look

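In 10 of 210 sets of 4 arrays examined (the named genes and the means of the gene lists in each hCG group), 1 array stood apart from the other 3 by Dixon's critical value, where chance gives about 1 in 20. After 1 day of hCG, replicate 1 was low in TRABD2A (7.05, others 9.64 to 10.08) and in the mean of the activin, inhibin and TGF-beta list (8.75, others 8.86 to 8.88). Replicate 2 of that group was low in MYOM1 (8.83, others 11.55 to 11.89) and in HSD3B2 (13.51, others 13.86 to 13.88). Replicate 4 was low in BAG2 (7.95, others 8.32 to 8.35), high in ZDHHC19 (9.75, others 8.91 to 8.99) and low in the mean of the MHC class II list (9.5, others 9.62 to 9.64). After 6 days, replicate 2 was high in PLEKHA4 (9.6, others 8.16 to 8.36) and low in CYP19A1 (12.63, others 13.63 to 13.81), and replicate 1 was high in FKBP5 (7.76, others 6.68 to 6.76).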

How the results depend on the processing

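The 70 called named genes kept their direction wherever they were tested in 21 alternatives; CP, TMPRSS7, KCNG3, PPARGC1A and EGF were not tested under the filter on the mean. The 1698 called probe sets became 708 in a fit of only the 8 arrays, 983 with the mark in braces as a block, 754 with the letter in the array name as a block, and 181 and 392 within the arrays without and with braces (alternatives chosen after seeing the data); leaving out 1 array gave 877 to 1802, and the other settings 1294 to 1939. The cause of these shifts was not tested. The labels do not say whether replicate numbers pair the arrays. Deviations of same-numbered arrays correlated at 0.24, 0.03 and -0.41, too few values to settle it, and those of differently numbered arrays at -0.44 to 0.45. With the replicate block 69 probe sets were called for hCG (66 of them in the main call), 11 of the 70 named genes and 0 of the cell division list, and 48 in the arms with trilostane and R5020, where leaving out 1 array gave 81 to 396. The difference of changes had 0 calls in all settings except leaving out day 10 hCG replicate 2 (0 to 1). Of 704 list medians recomputed for 32 lists, 27 moved by more than the spread between arrays. With all 33 arrays chemokines moved to 0.16. Pericyte markers moved to 0.074 with the replicate block. Within the arrays without braces the medians were 0.062 for steroid synthesis, 0.18 for activin, 0.053 for matrix, -0.068 for antioxidants, -0.070 for retinoid handling, -0.033 for interferon, -0.0061 for MHC class II, 0.047 for lymphocytes, -0.069 for pericytes and 0.16 for granulosa markers. Within those with braces they were -0.29 for matrix, -0.19 for lymphocytes and -0.19 for endothelial markers. Averaging the probe sets of a gene gave 0.23 for cholesterol uptake and 0.12 for iron and copper. Leaving out 1 array moved angiogenic factors (-0.055 to 0.061), progestin targets (-0.33 to -0.16), apoptosis (-0.034 to 0.034), matrix (-0.14 to -0.0017), granulosa (0.012 to 0.15), pericytes (-0.077 to 0.13) and chemokines (0.027 to 0.14). Probe sets under the median of all values have weak signal, and 4 arrays a group limit what small changes can pass.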
